A study of Homo sapiens with 18 samples.

Results

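The 37 genes of the human mitochondrial genome, whose symbols start with MT-, were followed across 14 RNA-seq libraries of MCF-10A cells. MCF-10A is an established, non-tumorigenic line of human mammary epithelium. The members were every gene with that prefix among the 60252 gene IDs of the count table, named through GENCODE 29. They are 13 messenger RNA genes, 2 ribosomal RNA genes and 22 transfer RNA genes. All cells stably carried a retroviral construct and were grown in Matrigel, a basement membrane gel, for 8 days. The Control group carried the empty vector PWZL, and 5 overexpression (OE) groups carried the construct for SRSF2, SRSF4, SRSF6, SRSF9 or TRA2B, as coding sequence. These proteins are nuclear regulators of pre-mRNA splicing of the SR and SR-like families. Each group has 3 samples in the labels, but in 4 groups replicates 1 and 2 share a library ID and barcode and differ by lane. Those lanes were summed and are called replicates 1-2, which leaves 2 libraries per group, except that SRSF2-OE and SRSF9-OE have 3. The labels do not say whether replicates were separate cultures or infections. The p-values below therefore measure only how far these libraries spread, and that spread may be technical.

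The mitochondrial genome is a compact circle that is copied into long transcripts from both of its strands. The transfer RNAs lie between most of the messenger and ribosomal RNAs, and cutting them out frees their neighbours. Most mature messenger RNAs then gain a short poly(A) tail, while transfer RNAs end in CCA. The messenger RNAs encode core subunits of respiratory complexes I, III and IV and of the ATP synthase, and the mitochondrial genes contain no introns for the nuclear splicing machinery to act on. Most genes are read from the heavy strand, here meaning 12 messenger RNA, 2 ribosomal RNA and 14 transfer RNA genes. MT-ND6 and 8 transfer RNA genes are read from the light strand.

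Library totals ran from 42959069 to 121601376 counts. The factor carried by each construct was higher than in every Control library in 4 groups, but SRSF6 was not: it measured 283 to 417 CPM (counts-per-million of the TMM-normalised library) in SRSF6-OE and 239 to 400 CPM in Control. The 10 epithelial markers summed to 19215 to 42972 CPM. The 9 matched markers of other cell types summed to 161 to 551 CPM, and none was at 0 in every library. Descriptions of 4 libraries carry a library ID and those of the other 10 a plain number. All SRSF2-OE and SRSF9-OE libraries are of the numeric kind, so this label set was a term in the model.

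The groups overlapped in the mitochondrial share of all counts, and libraries of 1 group could lie far apart. In Control it was 11.96% in replicates 1-2 and 7.64% in replicate 3. SRSF2-OE held the library with the highest share, replicate 1 at 16.4%, beside 8.31% and 11% in replicates 2 and 3. TRA2B-OE was split in the same way, with 9.18% in replicates 1-2 and 14.3% in replicate 3. The SRSF4-OE libraries stood at 8.58% and 8.96%, those of SRSF9-OE at 10.4%, 6.94% and 8.94%, and those of SRSF6-OE at 8.35% and 6.45%, the lowest of the 14. Thus SRSF4-OE had the closest libraries, and every OE group had at least 1 library within the range of Control. The lanes of 1 library differed by 0.0947 to 0.183 percentage points, and the 95% binomial (Wilson) interval of a library's share was at most 0.0199 points wide, which covers counting error only.

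Group means were 9.80% ± 3.06 (SD, n = 2) in Control, 11.9% ± 4.10 (n = 3) in SRSF2-OE, 8.77% ± 0.270 (n = 2) in SRSF4-OE, 7.40% ± 1.35 (n = 2) in SRSF6-OE, 8.75% ± 1.72 (n = 3) in SRSF9-OE and 11.8% ± 3.64 (n = 2) in TRA2B-OE. An exact permutation F test over the 6 groups gave p = 0.475 over 3153150 assignments, 0.500 after adjustment over the 4 ratios and shares tested this way. The differences from Control were 2.09 points for SRSF2-OE (two-sided exact permutation p = 0.7), 1.96 for TRA2B-OE (exact p = 0.667), -1.03 for SRSF4-OE (exact p = 1), -2.40 for SRSF6-OE (exact p = 0.667) and -1.05 for SRSF9-OE (exact p = 0.6). With 3 libraries against 2 the smallest p this test allows is 0.1, and with 2 against 2 it is 0.333, so none could pass 0.05. The signs rest on single libraries. Without SRSF2-OE replicate 1 its difference was -0.144 points, without TRA2B-OE replicate 3 that group's was -0.617, and without Control replicates 1-2 those of SRSF4-OE and SRSF9-OE were 1.14 and 1.12. Without Control replicate 3, the differences of SRSF2-OE and TRA2B-OE were -0.0710 and -0.205.

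**Figure D1:**
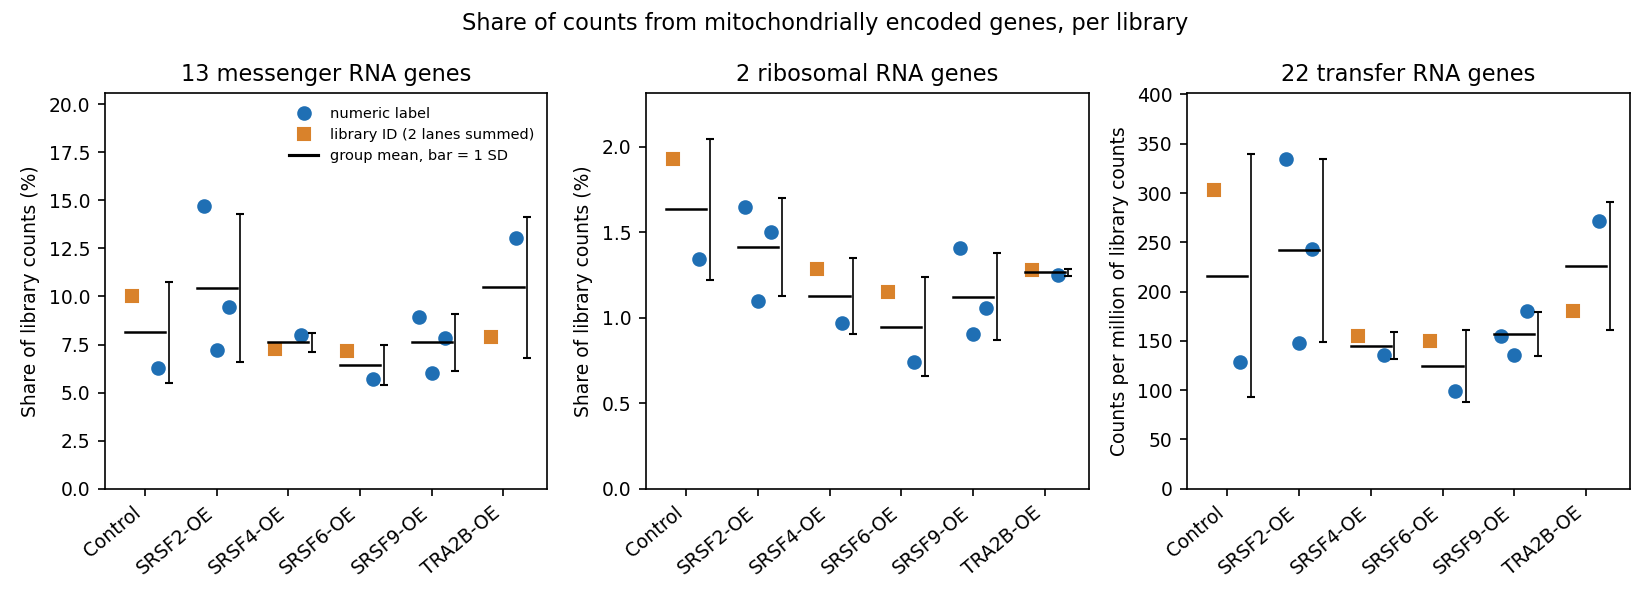
Share of library counts from the 13 messenger RNA genes and the 2 ribosomal RNA genes (percent) and from the 22 transfer RNA genes (counts-per-million of library counts), per library, in the 6 groups. Circles are libraries with numeric labels and squares those with a library ID, lines are group means and bars 1 SD. SRSF2-OE replicate 1 (14.7%) and TRA2B-OE replicate 3 (13.1%) stand above the other libraries for messenger RNA, whereas Control replicates 1-2 (1.93%) stand highest for ribosomal RNA.

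Messenger RNAs made up most of the mitochondrial signal, from 82.2% of member counts in Control replicate 3 to 91.1% in TRA2B-OE replicate 3. Their levels are compared here as CPM per kilobase of gene, averaged over the 14 libraries. The 3 mitochondrially encoded subunits of complex IV, cytochrome c oxidase, led. MT-CO2 averaged 15772 ± 7014 CPM per kilobase (SD over 14 libraries), MT-CO1 14259 ± 5636 and MT-CO3 12067 ± 3064. MT-CO2 ranked first in 10 libraries, MT-CO1 in 3 and MT-CO3 in 1, so the order among the 3 is not fixed. MT-CYB, the cytochrome b of complex III, averaged 6539 CPM per kilobase and held rank 6 of 13 in all 14 libraries. MT-ATP6, which forms part of the proton channel of the ATP synthase, averaged 8427 and was ranked 4 or 5.

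The 7 subunits of complex I, NADH dehydrogenase, spread from high to low. MT-ND4 averaged 9450 CPM per kilobase and shared ranks 4 and 5 with MT-ATP6. MT-ND4L (4396), MT-ND2 (4326), MT-ND3 (3404), MT-ND1 (3357) and MT-ND5 (2926) followed, with spreads that overlap. MT-ND6 averaged 2490 ± 850 and MT-ATP8, the small partner of MT-ATP6, 2071 ± 707, and 1 of these was last in every library (MT-ATP8 in 10, MT-ND6 in 4). Per library, the levels of a messenger RNA differed by 2.02-fold (MT-ND3) to 4.95-fold (MT-ATP8) between the lowest and highest of the 14 libraries. SRSF2-OE replicate 1 held the highest CPM for 11 of the 13 messenger RNAs, and Control replicate 3 the lowest for 5.

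**Figure D2:**
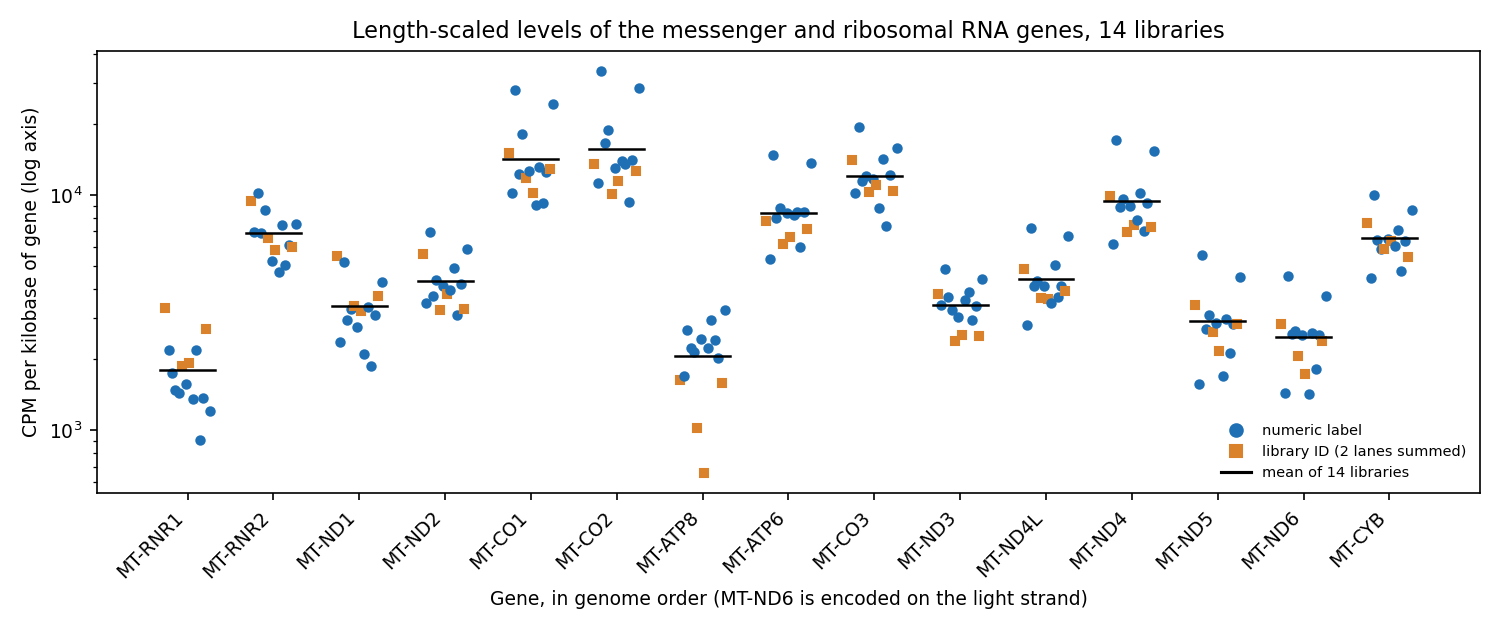
CPM per kilobase of gene, on a log axis, for the 13 messenger RNA and 2 ribosomal RNA genes in genome order. Each point is 1 of 14 libraries (circles numeric labels, squares library IDs) and the line is their mean; the MT-CO genes lie highest, and the low points of MT-ATP8 are library ID libraries.

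The ribosomal RNAs MT-RNR1 (12S, of the small mitoribosomal subunit) and MT-RNR2 (16S, of the large) took 0.744% to 1.93% of counts. MT-RNR2 averaged 6909 CPM per kilobase and MT-RNR1 1806. The kit selects poly(A) RNA, so these levels need not follow the amounts in the cell. In TRA2B-OE replicates 1-2, the 4 matched nuclear RNAs that lack a poly(A) tail summed to 66.8 CPM, of which a single gene gave 65.8. Their sum was 0.171 to 7.68 CPM in the other libraries, and 1 of the 4 was at 0 in every library. The part of these RNAs in the values of TRA2B-OE replicates 1-2 was not tested. MT-RNR1 stood at 3171 and 2090 CPM in Control. It lay below both in SRSF2-OE (1670, 1416 and 1370), SRSF4-OE (1785 and 1506), SRSF6-OE (1840 and 1291) and SRSF9-OE (2084, 865 and 1311), while TRA2B-OE had 2580 and 1148 on either side of Control replicate 3. MT-RNR2 was 14739 and 10861 CPM in Control and lay below both in SRSF4-OE (10277 and 8151) and SRSF6-OE (9099 and 7372). In the edgeR quasi-likelihood model, with p-values adjusted by Benjamini-Hochberg over 21326 genes, MT-RNR1 had log2 differences of -0.48 ± 0.35 (SE) in SRSF2-OE, -0.64 ± 0.36 in SRSF4-OE, -0.74 ± 0.36 in SRSF6-OE, -0.54 ± 0.35 in SRSF9-OE and -0.56 ± 0.36 in TRA2B-OE. None passed the test, and its smallest adjusted p was 0.283, in SRSF6-OE.

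Set against messenger RNA in the same library, ribosomal RNA was highest in Control. There were 19.3 and 21.4 ribosomal RNA counts per 100 messenger RNA counts in the Control libraries and 9.59 to 17.7 in the 12 OE libraries, so the ranges do not overlap. Over the 6 groups the exact permutation F test gave p = 0.335 (adjusted 0.500). Control against all OE libraries together was not a planned comparison and was not tested. TRA2B-OE replicate 3 (9.59) and SRSF2-OE replicate 1 (11.2), the libraries richest in mitochondrial messenger RNA, were the lowest.

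Transfer RNAs, which are shorter than the sequenced reads and lack a poly(A) tail, gave 98.9 to 334 counts-per-million. How many counts a heavy-strand transfer RNA gene received differed with its neighbours in the genome. The 8 heavy-strand genes MT-TV, MT-TL1, MT-TK, MT-TG, MT-TR, MT-TH, MT-TS2 and MT-TL2 have a gene of the same strand within 100 bases on both sides. They totalled 0 to 3 counts each over all 14 libraries, and 4 of them (MT-TV, MT-TL1, MT-TH and MT-TS2) had 0 in every library, which allows at most 0.0698 counts-per-million in the shallowest one. The 6 heavy-strand genes with such a neighbour on 1 side only (MT-TF, MT-TI, MT-TM, MT-TW, MT-TD and MT-TT) totalled 48 to 9863 counts. On the light strand, the 8 genes totalled 276 (MT-TC) to 78165 (MT-TY), including MT-TN and MT-TC, which lie between light-strand neighbours. This split was described after the counts were seen. The sources used here do not give how reads spanning 2 genes were counted, and the part of that choice in the split was not tested.

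**Figure D3:**
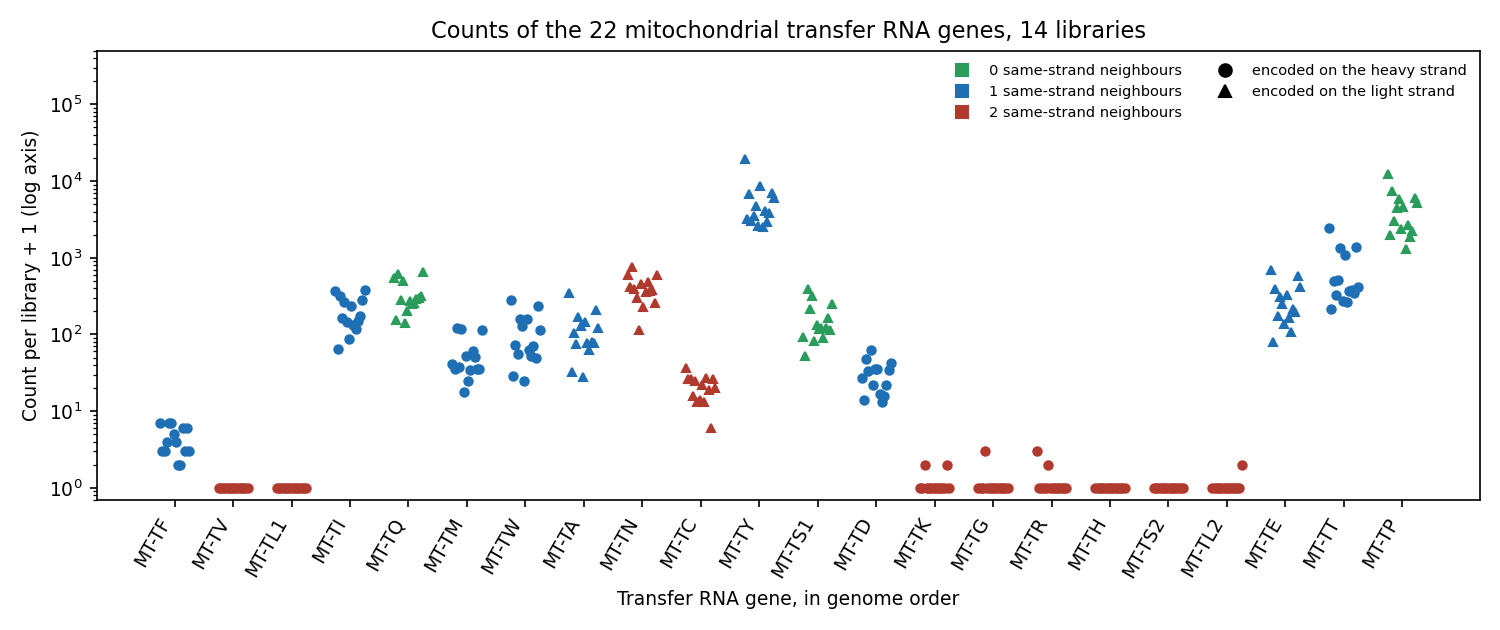
Count per library plus 1, on a log axis, of the 22 transfer RNA genes in genome order, 14 points per gene. Circles are heavy-strand and triangles light-strand genes, and the colour gives how many neighbours within 100 bases lie on the same strand. Heavy-strand genes between 2 such neighbours sit at 0 to 2 counts in each library.

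In all, 28 of the 37 members passed the filter on low counts: every messenger and ribosomal RNA and 13 transfer RNAs. The 9 left out are the 8 heavy-strand genes above and MT-TF, which had 1 to 6 counts per library. Among the 13, MT-TY (tyrosine) averaged 1237 CPM per kilobase and MT-TP (proline) 980, whereas MT-TD (aspartate) averaged 7.60 and MT-TC (cysteine) 4.93. Between the lowest and the highest library, the levels of the 13 differed by 2.76-fold for MT-TY to 13.7-fold for MT-TM. As a share of member counts, transfer RNAs made up 0.254% and 0.169% in Control and 0.149% to 0.222% in the OE libraries. For the ratio of transfer RNA to messenger RNA counts, the exact permutation F test over the 6 groups gave p = 0.500 (adjusted 0.500).

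The kit selects poly(A) RNA and not every mitochondrial messenger RNA gains a tail, so ratios need not follow amounts in the cell. The part of this in the MT-ND6 ratio was not tested. MT-ND6, the complex I subunit read from the light strand, was compared with the heavy-strand messenger RNAs under this limit. Per 100 counts of the 12 heavy-strand messenger RNAs it had 1.63 and 1.26 counts in Control, 1.55, 1.70 and 1.5 in SRSF2-OE, 1.62 and 1.70 in SRSF4-OE, 1.58, 1.67 and 1.68 in SRSF9-OE and 1.74 and 1.48 in TRA2B-OE. In SRSF6-OE it had 1.35 and 1.14, the lowest of the OE groups. Both SRSF6-OE libraries therefore lay below all OE libraries of other groups, and Control replicate 3 lay between them. The group mean was 1.24 ± 0.151 (SD, n = 2) in SRSF6-OE and 1.45 ± 0.259 (n = 2) in Control, and 1.58 to 1.66 in the other 4 groups. The exact permutation F test over 6 groups gave p = 0.0915, or 0.366 adjusted over 4 tests. Unadjusted, it gave 0.0345 without Control replicates 1-2, 0.030 in the numeric-labelled libraries alone and 0.0351 with the label set as a block. MT-ND6 itself was 1492 and 756 CPM in Control and 908 and 745 CPM in SRSF6-OE, a log2 difference of -0.43 ± 0.40 (edgeR adjusted p = 0.540).

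No member passed the test in any contrast with Control. In edgeR, at an adjusted p under 0.05, 0 of 28 members were called for SRSF2-OE beside 0% of all 21326 genes, 0 for SRSF4-OE beside 0%, 0 for SRSF6-OE beside 0.00469%, 0 for SRSF9-OE beside 0% and 0 for TRA2B-OE beside 0.00938%. The F test over the 5 OE groups called 0 of 28 members beside 0.0422% of all genes. At an unadjusted p under 0.05 there were 2 members for SRSF2-OE (13.4% of all genes), 0 for SRSF4-OE (14.9%), SRSF6-OE (19.5%) and SRSF9-OE (4.47%), 2 for TRA2B-OE (12%) and 3 in the F test (13.6%). The limma-voom test also called 0 members in each contrast. DESeq2 called 1 member for SRSF2-OE (MT-TS1) beside 2.95% of genes and 2 in its test over the groups (MT-TS1 and MT-TP) beside 8.04%. It called 0 for SRSF4-OE beside 3.05%, SRSF6-OE beside 7.04%, SRSF9-OE beside 0.0704% and TRA2B-OE beside 2.3%.

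In direction, most members were higher than Control in SRSF2-OE and TRA2B-OE and lower in SRSF4-OE and SRSF6-OE. In SRSF2-OE 22 of 28 members, but 53.0% of all genes, had a positive log2 difference, with a median of 0.55 beside 0.04 over all genes. In TRA2B-OE 21 of 28 did, beside 49.9% of all genes, with a median of 0.46 beside 0.00. In SRSF4-OE and SRSF6-OE 21 of 28 were negative in each, with medians of -0.16 and -0.28 beside -0.04 and -0.03, and SRSF9-OE had 15 positive and a median of 0.01. All 5 contrasts share the Control libraries, and the medians changed with single libraries. Without Control replicates 1-2 they were 0.97, 0.58, 0.37, 0.48 and 1.07 for SRSF2-OE, SRSF4-OE, SRSF6-OE, SRSF9-OE and TRA2B-OE, and without Control replicate 3 they were -0.04, -0.62, -0.72, -0.57 and -0.11. The TRA2B-OE median was -0.06 without TRA2B-OE replicate 3 and 1.02 without its replicates 1-2, and the SRSF2-OE median was 0.20 without SRSF2-OE replicate 1. The SRSF4-OE median was -0.09 without replicates 1-2, and the SRSF9-OE median was -0.11 without replicate 1 and -0.09 without replicate 3. Other RNAs were also lower than Control in SRSF4-OE and SRSF6-OE: 5 of 5 tested markers of other cell types (medians -0.32 and -0.73) and 3 of 3 nuclear-retained long RNAs (medians -0.77 and -0.61). In SRSF9-OE 4 of 5 and 3 of 3 were lower (medians -0.84 and -0.98), in TRA2B-OE 4 of 5 and 1 of 3, and in SRSF2-OE 2 of 5 and 1 of 3. Their part in the members' values was not tested.

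Some members lay outside the Control range in every library of a group, as many genes did with so few libraries. In SRSF2-OE, 8 of 28 members were above both Control libraries in all 3 libraries, beside 16.7% of genes, and 1 was below, beside 17.5%. TRA2B-OE had 5 above (18.3% of genes) and 0 below (18.2%), SRSF9-OE 4 above (16.5%) and 1 below (17.6%), SRSF6-OE 2 above (22.8%) and 4 below (24.4%), and SRSF4-OE 0 above (25.3%) and 5 below (27.2%). The 8 in SRSF2-OE were 5 transfer RNAs (MT-TI, MT-TQ, MT-TM, MT-TS1 and MT-TD) and the messenger RNAs MT-CO2, MT-ATP8 and MT-ATP6. With the label set in the model MT-ATP8 turned to a log2 difference of -0.10 ± 0.34 (edgeR adjusted p = 0.924), whereas the other 7 stayed positive. It was also among the 4 in SRSF9-OE, where the model gave -0.03 ± 0.34.

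MT-TS1, the transfer RNA for serine that reads UCN codons, had the smallest p of the members in the contrasts of SRSF2-OE, SRSF9-OE and TRA2B-OE with Control. Its gene lies on the light strand between MT-CO1 and MT-TD. The genes of MT-TS1, MT-TD and MT-TP, the 3 members at an unadjusted p under 0.05 in the F test, read as follows in GENCODE 29 (build GRCh38), 5′ to 3′ in the sense of the transfer RNA, with the anticodon in capitals.
MT-TS1: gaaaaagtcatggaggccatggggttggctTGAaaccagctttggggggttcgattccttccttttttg
MT-TD: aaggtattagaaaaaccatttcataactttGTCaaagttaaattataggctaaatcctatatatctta
MT-TP: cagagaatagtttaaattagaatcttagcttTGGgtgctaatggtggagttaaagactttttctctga

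MT-TS1 measured 0.711 and 1.0 CPM in Control. It reached 7.90, 4.57 and 7.11 CPM in the SRSF2-OE libraries. The TRA2B-OE libraries had 1.14 and 4.94 CPM, those of SRSF9-OE 1.60, 2.37 and 3.86, those of SRSF6-OE 1.04 and 2.56, and those of SRSF4-OE 0.914 and 2.73. Every SRSF2-OE library but replicate 2 thus lay above all 11 libraries of the other groups, and in replicate 2 only TRA2B-OE replicate 3 was higher. The counts behind these values were small, 51 to 393 per library. The group mean was 6.52 ± 1.74 CPM (SD, n = 3) in SRSF2-OE and 0.856 ± 0.205 (n = 2) in Control. With the label set in the model the log2 difference was 2.19 ± 0.51 (edgeR adjusted p = 0.178), and 1.47 ± 0.49 in TRA2B-OE (adjusted p = 0.306). DESeq2 gave the same size in SRSF2-OE, 2.18, with an adjusted p of 0.00146. Leaving out 1 library at a time gave log2 differences of 1.53 to 2.71 in SRSF2-OE, with edgeR adjusted p from 0.168 to 0.489.

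The level of MT-TS1 moved with the label set as well. In the 4 groups that hold both kinds, the numeric-labelled library was higher in each: 1.0 against 0.711 CPM in Control, 2.73 against 0.914 in SRSF4-OE, 2.56 against 1.04 in SRSF6-OE and 4.94 against 1.14 in TRA2B-OE. Within the numeric-labelled libraries alone, SRSF2-OE averaged 6.52 CPM over 3 libraries, SRSF9-OE 2.61 over 3 and the lone Control library 1.0. By rising plain number, these libraries had 1.0, 2.73, 2.56, 1.60, 2.37, 4.57, 3.86, 4.94, 7.11 and 7.90 CPM. Of these, 1.0 is Control, and 4.57, 7.11 and 7.90 are SRSF2-OE replicates 2, 3 and 1. What the numbers stand for is not given, and their part in the level of MT-TS1 was not tested. The ratio of MT-TS1 to MT-CO1, its neighbour on the other strand, in counts-per-million of the MT-CO1 count, was 183, 242 and 253 in SRSF2-OE, 30.6 and 63.6 in Control and 50.4 to 200.2 in the other libraries. SRSF2-OE replicate 1 overlaps that last range. The sources used here do not give whether the counting used strand. If it did not, reads of the opposite strand at MT-TS1, at other light-strand genes and at MT-ND6 cannot be told apart from their own.

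MT-TD, the heavy-strand transfer RNA next to MT-TS1, followed a similar order at lower counts of 12 to 62 per library. It measured 0.199 and 0.255 CPM in Control, and 0.945, 0.683 and 1.39 in SRSF2-OE. The other groups ran from 0.216 CPM (SRSF9-OE replicate 1) to 0.808 (TRA2B-OE replicate 3). The SRSF2-OE libraries thus lay above Control, but replicate 2 overlapped SRSF4-OE replicate 3 (0.709) and TRA2B-OE replicate 3. Its log2 difference from Control was 1.69 ± 0.55 in SRSF2-OE (edgeR adjusted p = 0.250). MT-TI (isoleucine) was the second member of the TRA2B-OE contrast counted above, with 2.86 and 7.45 CPM beside 2.78 and 1.26 in Control (log2 1.25 ± 0.56, edgeR adjusted p = 0.414).

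**Figure D4:**
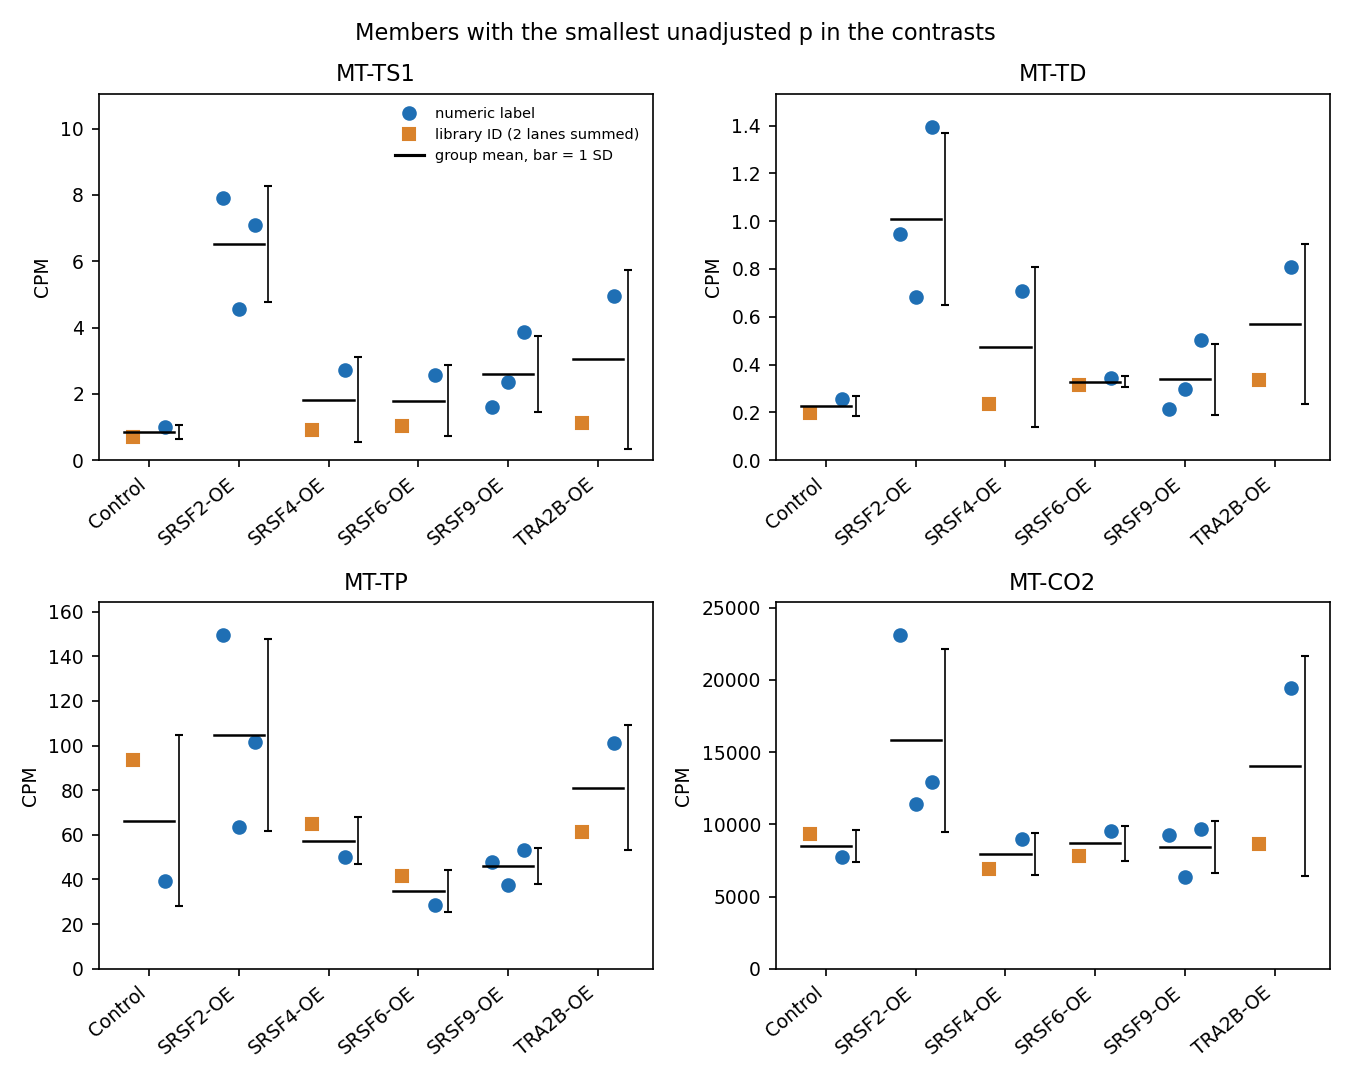
CPM of MT-TS1, MT-TD, MT-TP and MT-CO2 per library in the 6 groups; lines are group means, bars 1 SD, circles numeric labels and squares library IDs. MT-TS1 stands at 4.57 to 7.90 CPM in SRSF2-OE and at 0.711 and 1.0 CPM in Control.

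In the other contrasts with Control, the smallest p among members belonged to MT-TY for SRSF4-OE and to MT-RNR2 for SRSF6-OE. MT-TY stood at 53.3 and 54.9 CPM beside 147 and 63.3 in Control (log2 -0.91 ± 0.45, edgeR adjusted p = 0.370). MT-RNR2 had the levels given above (log2 -0.63 ± 0.30, edgeR adjusted p = 0.276). For SRSF9-OE, MT-TS1 had the smallest p (log2 0.86 ± 0.49, edgeR adjusted p = 0.870). None of these differences passed the test.

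SRSF2-OE and SRSF9-OE have 3 libraries each, all with numeric labels, and share no library. Their contrast is thus free of the label set and of Control, but the plain numbers themselves were not in the model. SRSF2-OE replicates 1 and 3 carry the highest of these numbers. SRSF9-OE replicates 1 and 2 carry lower ones than any SRSF2-OE library, and the part of this was not tested. In the contrast 27 of 28 members were higher in SRSF2-OE, with a median log2 difference of 0.48 beside 0.04 over all genes. The median was 0.24 without SRSF2-OE replicate 1. The members share their libraries, so this count is not one of separate observations. The 3 nuclear-retained long RNAs tested were also higher (median 1.11), as were 4 of 5 tested markers of other cell types (median 0.74), and their part in the difference was not tested. edgeR called 0 of 28 beside 0.00469% of all genes, and DESeq2 0 beside 1.4%. At an unadjusted p under 0.05 there were 5 members, beside 11.7% of all genes. MT-TD had the largest difference, 1.58 ± 0.44 (edgeR adjusted p = 0.296), then MT-TS1 with 1.32 ± 0.39 (edgeR adjusted p = 0.298). MT-TP measured 149, 63.6 and 101 CPM in SRSF2-OE and 47.6, 37.4 and 53.4 in SRSF9-OE, with no overlap (log2 1.18 ± 0.36, edgeR adjusted p = 0.321). MT-CO2 measured 23082, 11392 and 12953 CPM against 9234, 6369 and 9666, again without overlap (log2 0.91 ± 0.34, edgeR adjusted p = 0.371). MT-TM (methionine) was the fifth, at 2.41, 0.790 and 2.63 CPM against 1.08, 0.995 and 0.839 (log2 1.0 ± 0.44, edgeR adjusted p = 0.424), and its libraries overlapped. The member share itself differed by 3.14 points (two-sided exact permutation p = 0.4, the smallest possible being 0.1), and by 0.903 points without SRSF2-OE replicate 1 or 4.93 without its replicate 2.

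MT-CO2 also stood apart from MT-ND2, a complex I messenger RNA of the same strand, within libraries. There were 287 to 317 MT-CO2 counts per 100 MT-ND2 counts in the 3 SRSF2-OE libraries, 255 and 316 in TRA2B-OE, and 159 to 231 in the 9 libraries of the other 4 groups. This ratio was chosen after the levels were seen and was not tested. The numeric-labelled library was the higher one in all 4 groups that hold both kinds.

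There are 2 pairs of messenger RNA genes that overlap and are carried on shared transcripts. MT-ATP8 shares its last 46 bases with the start of MT-ATP6, and MT-ND4L its last 7 with the start of MT-ND4. MT-ATP8 is shown whole because it is short, with 161 of its 207 bases outside the overlap, and the end of MT-ND4L is shown beside it. Shared bases are in capitals (GENCODE 29, build GRCh38, 5′ to 3′).
MT-ATP8: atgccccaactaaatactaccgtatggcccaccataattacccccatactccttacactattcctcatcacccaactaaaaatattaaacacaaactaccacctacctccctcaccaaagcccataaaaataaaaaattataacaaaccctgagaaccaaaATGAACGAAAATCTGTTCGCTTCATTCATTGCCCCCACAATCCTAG
MT-ND4L: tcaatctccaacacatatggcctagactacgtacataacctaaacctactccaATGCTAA

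The ratio of the MT-ATP8 count to that of MT-ATP6 varied 4.07-fold between libraries, and that of MT-ND4L to MT-ND4 varied 1.26-fold. MT-ATP8 had 3.01 counts per 100 MT-ATP6 counts in SRSF6-OE replicates 1-2, 5.02 in SRSF4-OE replicates 1-2, 6.44 in Control replicates 1-2 and 6.74 in TRA2B-OE replicates 1-2. In the 10 numeric-labelled libraries it had 5.48 (SRSF2-OE replicate 1) to 12.3 (SRSF9-OE replicate 2). The numeric-labelled library was the higher in all 4 groups that hold both. MT-ND4L had 9.08 to 11.4 counts per 100 MT-ND4 counts, and there the numeric-labelled library was the lower in all 4. These ratios were examined after the values were seen and were not tested.

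**Figure D5:**
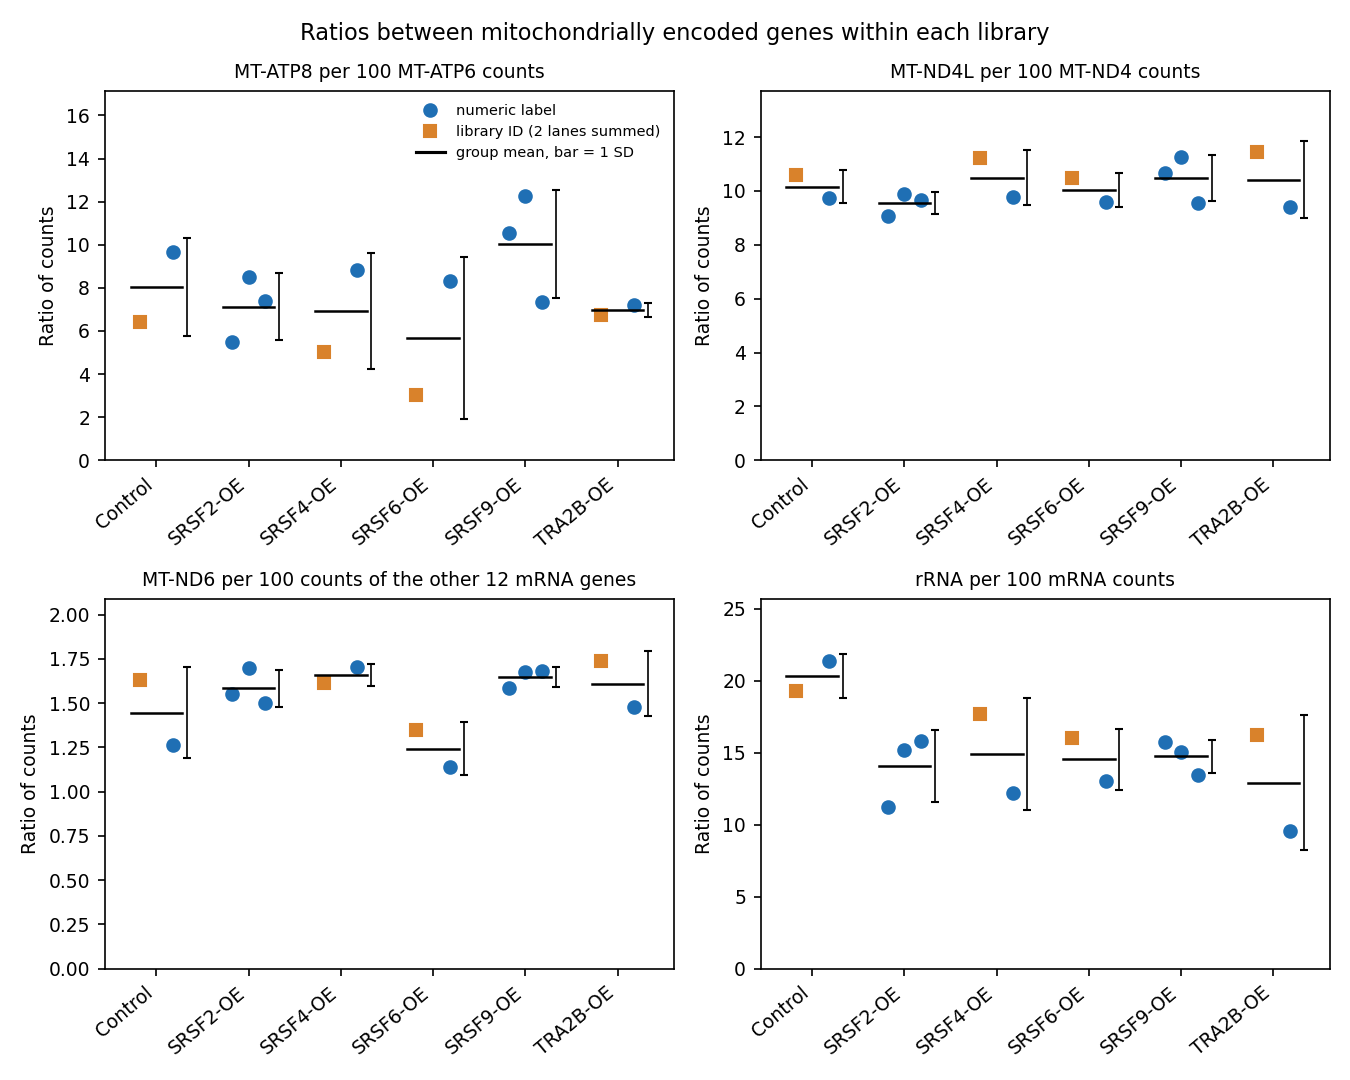
Count ratios per library in the 6 groups: MT-ATP8 per 100 MT-ATP6, MT-ND4L per 100 MT-ND4, MT-ND6 per 100 heavy-strand messenger RNA counts and ribosomal RNA per 100 messenger RNA counts; lines are means, bars 1 SD, circles numeric labels and squares library IDs. MT-ATP8 spreads widely by label set, MT-ND6 is low in SRSF6-OE (1.35 and 1.14), and ribosomal RNA is high in Control (19.3 and 21.4).

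Between the label sets the mitochondrial share itself had no common direction. The numeric-labelled library was lower by 4.33 points in Control and 1.90 in SRSF6-OE, and higher by 0.382 in SRSF4-OE and 5.15 in TRA2B-OE. The mean difference was -0.175 points (exact sign-flip permutation p = 1, the smallest possible with 4 pairs being 0.125). Single members differed more between the label sets in the edgeR model. MT-TM was higher in numeric-labelled libraries by 2.0 ± 0.41 on the log2 scale, MT-TN (asparagine) by 1.98 ± 0.35, MT-TS1 by 1.38 ± 0.34 and MT-ATP8 by 1.03 ± 0.24, and MT-TT (threonine) lay at -1.28 ± 0.25. Their edgeR adjusted p ran from 0.0901 to 0.143, so 0 of 28 members were called at an adjusted p under 0.05, beside 0.0141% of all genes higher and 0.0188% lower. MT-TT measured 18.8, 15.1, 9.75 and 14.1 CPM in the 4 library ID libraries and at most 11.6 in the numeric ones.

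The nuclear partners of these genes were read from fixed lists. For the 34 nuclear complex I subunits tested, edgeR called 0 in each contrast. At an unadjusted p under 0.05 there were 7 in SRSF2-OE, beside 13.4% of all genes, and 5 in TRA2B-OE, beside 12%. Of the 34, 23 were higher than Control in SRSF2-OE, 22 in SRSF4-OE, 15 in SRSF6-OE, 17 in SRSF9-OE and 25 in TRA2B-OE. Over all genes the shares higher were 53.0%, 46.9%, 47.9%, 50.2% and 49.9%, in the same order. Of 9 nuclear complex III subunits, 7, 6, 4, 5 and 7 were higher in that order. Of 10 nuclear complex IV subunits, 8, 5, 5, 2 and 9 were, and edgeR called 0 of either list. The 16 nuclear ATP synthase subunits were higher than Control for 14 in SRSF2-OE (median log2 0.24) and 15 in TRA2B-OE (0.22), for 11 in SRSF4-OE and in SRSF9-OE (0.10 and 0.02) and for 7 in SRSF6-OE (-0.06), again with 0 called. At an unadjusted p under 0.05 there were 4 in SRSF2-OE and 4 in TRA2B-OE, beside 13.4% and 12% of all genes. Of the 47 large mitoribosomal proteins, 38 were higher in SRSF2-OE and 43 in TRA2B-OE (medians 0.20 and 0.20), and 28 to 34 in the other groups, with 0 called and 7 and 9 at an unadjusted p under 0.05, beside those shares again. DESeq2 called at most 3 of the 34 complex I subunits (TRA2B-OE, beside 2.3% of all genes). Its most were 2 of the 16 ATP synthase subunits and 3 of the 47 mitoribosomal proteins (both SRSF6-OE, beside 7.04%). In the other contrasts of these lists with Control it called 0 or 1, beside 0.0704% to 7.04% of all genes. ATP5F1D, a subunit of ATP synthase, averaged 44.7 CPM in Control, 89.2 in SRSF2-OE, 74.1 in TRA2B-OE and 57.9 to 68.7 in the other OE groups (log2 0.82 ± 0.17 in SRSF2-OE and 0.75 ± 0.17 in TRA2B-OE, edgeR F test adjusted p = 0.267). NDUFS8, an iron-sulfur subunit of complex I, averaged 35.5 CPM in Control, 68.0 in SRSF2-OE, 62.7 in TRA2B-OE and 48.0 to 54.6 in the other OE groups (log2 0.90 ± 0.17 in SRSF2-OE and 0.82 ± 0.18 in TRA2B-OE, edgeR F test adjusted p = 0.239). NDUFS6, also of complex I, had a smaller F test p, with log2 0.47 ± 0.14 in SRSF2-OE and 0.68 ± 0.14 in TRA2B-OE. In SRSF6-OE NDUFS6 lay at -0.08 ± 0.14 (edgeR F test adjusted p = 0.211). MRPL48 had the smallest F test p of the large mitoribosomal proteins and another pattern. Its log2 difference was -0.005 ± 0.160 in SRSF2-OE, 0.19 ± 0.16 in TRA2B-OE and 0.88 ± 0.16 in SRSF6-OE (edgeR F test adjusted p = 0.193).

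Genes that make and cut mitochondrial RNA were mostly higher than Control in each OE group, counted separately. Beside them, 46.9% to 53.0% of all genes were higher. Of 17 genes of mitochondrial transcription and genome maintenance, 11 to 13 were higher than Control, depending on the group. POLRMT, the mitochondrial RNA polymerase, averaged 29.4 CPM in Control, 47.7 in SRSF2-OE and 47.3 in SRSF6-OE (edgeR F test adjusted p = 0.323). Of 31 genes of mitochondrial RNA processing, modification and decay, 22 to 25 were higher than Control, depending on the group, with medians of 0.14 to 0.24. PUS1, a pseudouridine synthase of transfer RNAs, averaged 19.2 CPM in Control and 29.7 to 36.3 in the OE groups (edgeR F test adjusted p = 0.264). Those 5 contrasts share Control, and no gene of either list was called by edgeR. In a list and contrast, 1 to 9 were at an unadjusted p under 0.05, beside 4.47% to 19.5% of all genes. Of the 31 processing genes, DESeq2 called 4 for SRSF4-OE, beside 3.05% of all genes, and 4 for SRSF6-OE, beside 7.04%. It called 1 for SRSF2-OE (2.95%), 1 for TRA2B-OE (2.3%) and 0 for SRSF9-OE (0.0704%). Of the 17 transcription and maintenance genes it called 2 for SRSF6-OE and 0 in the other contrasts with Control.

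Copies of mitochondrial genes in the nuclear genome can take or share reads with the members. The 399 genes with symbols of such copies summed to 1.02% to 1.33% of member counts, and MTATP6P1 alone held 67.0% of them. Reads that match MT-ATP6, MT-ATP8 and MT-CO3 as well as this copy could be split in counting, so levels of those genes are uncertain to that extent.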

How the data were processed

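RNA from Matrigel structures was extracted with a kit including DNase I, and sequenced from a stranded mRNA kit in paired reads of 101 bases, per the labels' protocols. The deposited values are raw counts per gene for 18 samples (36426438 to 70515965 counts each), made by the authors. The submitters' processing notes list Trimmomatic 0.36, STAR 2.5.1b, featureCounts, Subread and GRCh37 with no roles. Strand setting, treatment of overlapping reads and whether reads or pairs were counted are not given in the sources used here. Names, lengths, strands and sequences came from GENCODE 29 on GRCh38, matched by gene ID (55528 of 60252 named), so no coordinates are given.

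Lanes of 1 library were summed, giving 14 libraries. edgeR 4.0.16 (R 4.3.3) with TMM, filterByExpr (minimum count 10, 21326 genes) and a quasi-likelihood model of group and label set (7 residual degrees of freedom, common biological coefficient of variation 0.318) was the main test, with Benjamini-Hochberg adjusted p under 0.05 as threshold. Log2 differences are adjusted for label set. DESeq2 1.42.0 and limma 3.58.1 were alternatives, with other normalisations, no filter, no label set term, a replicate block, 18 separate samples and libraries left out. Shares and ratios were tested by exact permutation, enumerated in Python 3.11.15. Only the edgeR step was tried on simulated counts, for SRSF2-OE against Control. Their spread was set below the common estimate in these data, and the exact tests were not covered. Members and lists were chosen with earlier results of these data known. A fixed rule named the members with the smallest p in each contrast, the extremes of each class, MT-ND6 and MT-TS1. It also allowed up to 3 genes per nuclear list, by smallest F test p. Not every member so named is given in every library, and nuclear genes are given by group. Which of the 3 genes of a nuclear list are shown was not set by the rule. Other members shown were chosen after their values were seen.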

Additional observations from a re-analysis of the deposited data

How the results depend on the processing

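The 4 exact F tests and the 7 counts of members called kept their side of the threshold under most alternatives. The ratio of MT-ND6 to heavy-strand messenger RNA passed an unadjusted 0.05 in numeric-labelled libraries (exact permutation p = 0.030), with the label set as block (0.0351) and without Control replicates 1-2 (0.0345). It also did in 18 separate samples (exact permutation p = 0.0305), which count lanes as replicates. Leaving out 1 library gave 0.217 to 0.684 for the share, 0.162 to 0.646 for the transfer RNA ratio, 0.0812 to 0.707 for the ribosomal RNA ratio and 0.0345 to 0.343 for MT-ND6. Of pairs of libraries with the same replicate number, 16 of 31 correlated above 0.1 (range -0.420 to 0.494). Of pairs with different numbers, 17 of 50 did (range -0.587 to 0.517). The ranges overlap, and the main model did not pair libraries by replicate number. A replicate block on 18 samples, where lanes again count as replicates, gave an exact permutation p of 0.0173 for the MT-ND6 ratio. A replicate block in edgeR called 0 members in each contrast.

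The share differences of SRSF4-OE and SRSF9-OE became 1.33 and 1.12 points in numeric-labelled libraries. Leave-one-out ranges were -0.144 to 4.25 for SRSF2-OE (-0.0710 without Control replicate 3, 3.88 without SRSF2-OE replicate 2), -3.19 to 1.14 for SRSF4-OE, -4.56 to -0.234 for SRSF6-OE, -3.21 to 1.12 for SRSF9-OE and -0.617 to 4.53 for TRA2B-OE (-0.205 without Control replicate 3). For SRSF2-OE minus SRSF9-OE, an alternative chosen after seeing the data, the range was 0.903 to 4.93. The label set difference in share became -1.95 without TRA2B-OE, -0.360 without SRSF4-OE, 1.21 without Control, 0.402 without SRSF6-OE and 0.163 for messenger RNA genes alone. The causes were not tested.

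With 18 separate samples, which count lanes as replicates, edgeR called many more genes. For SRSF2-OE it called 1 of 28 members (MT-TS1) beside 1345 of all 21026 genes, and for SRSF4-OE 1 (MT-TY) beside 3465. For TRA2B-OE it called 1 (MT-TS1) beside 2897 genes, and for SRSF6-OE 2 (MT-RNR2 and MT-ATP8) beside 4030. The F test called 2 (MT-TS1 and MT-TP) beside 3725 genes. DESeq2 on the 14 libraries called 1 member for SRSF2-OE, beside 2.95% of genes, and 2 in the test over groups, beside 8.04%. With 1 library left out edgeR called 0 members in every contrast; an arm left with 1 library is then assumed to vary like the others. Depth limits the transfer RNAs most, with MT-TC at 5 to 36 and MT-TD at 12 to 62 counts per library.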
